A study of Saccharomyces cerevisiae with 6 samples.

Results

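The seripauperin (*PAU*) genes and the *DAN* and *TIR* mannoprotein genes of *Saccharomyces cerevisiae* were taken from the deposited count table by name, as every gene called *PAU*, *DAN* or *TIR* followed by a number. The rule found 30 of 7126 genes, 24 of them *PAU*, 2 *DAN* and 4 *TIR*, with at least 1 on each of the 16 nuclear chromosomes. Their transcripts were compared between *kcs1*-S537A,S646A and wild-type (WT) yeast, with 3 single colonies of each. Both strains are diploids of the filamentous Σ1278b background. Both lack the 2 chromosomal copies of *KCS1*, which encodes an inositol polyphosphate kinase. In their place each carries pRS416, a centromeric plasmid of low copy number with *URA3* for selection, which holds *KCS1* with 2 serines changed to alanine in the mutant and the unchanged gene in WT. Cells were grown in low-nitrogen medium, for 20 h by the sample labels, and poly(A) RNA was sequenced. The 3 colonies of a group were of 1 strain, so the *p*-values measure differences against the spread between colonies, and the allele cannot be told apart from other differences between the strains.

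*DAN* and *TIR* genes encode serine- and alanine-rich mannoproteins that are attached to the cell wall, and *PAU* genes form a large family of small, closely related secreted proteins, most of them encoded near chromosome ends. In yeast, these families are known as genes that are silent or nearly so in air and are turned on when oxygen, and with it heme and sterol, runs short. The sterol-sensing factor Upc2 activates them, and the repressors Rox1 and Mot3 hold them down in air. The *DAN* and *TIR* proteins then take the place of the wall proteins Cwp1 and Cwp2.

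In these libraries, 0 of the 16 genes that could be tested differed between *kcs1*-S537A,S646A and WT cells by edgeR's quasi-likelihood test at an adjusted *p*-value of 0.05, where 5.66% of all 6083 genes tested did. That background fell to 0.289% without the genes of chromosomes XIV and VI, on which 1 of the 16 genes lies. Most of the *PAU* family was close to undetected in both strains. The 14 genes that did not pass the filter on low counts were all *PAU* genes within 30 kb of a chromosome end, and they held 174 counts in all 6 samples together. The transcripts that were detected came mainly from 5 *PAU* genes in chromosome interiors, from *DAN4* and from *TIR2*, *TIR3* and *TIR4*.

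Between 20529351 and 22701020 fragments were counted per *kcs1*-S537A,S646A sample and between 17950923 and 20822332 per WT sample, of which the 30 genes held from 0.0093% to 0.012%. *KCS1* itself had 272, 797 and 347 CPM (counts scaled to library size with edgeR's TMM factors) in the 3 mutant samples, against 367, 309 and 341 CPM in WT (log2 fold change 0.48, adjusted *p* = 0.50 from edgeR), so its level does not separate the labels. As a group, genes of chromosome XIV were lower in each mutant sample, with median log2 differences from the WT mean of -0.51, -0.53 and -0.52. Genes of chromosome VI were lower in mutant replicate 1 alone, with a median of -0.88 there and of 0.042 and 0.029 in mutant replicates 2 and 3. *PAU6* lies on chromosome XIV and *PAU5* on chromosome VI. The diploid label was compared with 14 genes that are known to be repressed in a/α diploids, and all 14 were detected, at 0.98 to 57.6 CPM over the 6 samples, and none at 0 in any. The median of their mean levels was 11.4 CPM, against 54.5 CPM for all genes tested. The summed level of the 14 genes was 210, 221 and 229 CPM in the mutant samples, against 197, 191 and 182 CPM in WT. Of these, *STE4*, a subunit of the pheromone-response G protein, had 52.9, 52.7 and 57.6 CPM in the mutant samples, against 43.1, 37.8 and 34.1 CPM in WT (log2 fold change 0.51, adjusted *p* = 0.028 from edgeR). It was the 1 gene of the list that passed the test, but its call was lost in 7 of 16 alternatives (adjusted *p* = 0.065 to 0.14), among them the fits without mutant replicate 3 or WT replicate 2 or 3 and both that treat chromosomes XIV and VI apart. Of the 14 genes, 12 had a positive log2 fold change, as did 53.2% of all genes tested. How far this bears on the other results was not tested. In bulk cultures, fewer cells that express a gene and less of its RNA per cell cannot be told apart.

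The sequences of the *PAU* genes bear on how far their counts can be read one by one. The first 60 coding bases are shown for the 7 tested *PAU* genes that are given below with values per sample. They are from the R64 reference genome of strain S288C and in the direction of the gene, with capitals where a base differs from *PAU2*. *PAU4* and *PAU24* differ from *PAU2* at 3 of these positions, *PAU5* at 8, *PAU7* at 9, *PAU17* at 11 and *PAU23* at 14.
*PAU2* (chrV:63728-63787, plus strand): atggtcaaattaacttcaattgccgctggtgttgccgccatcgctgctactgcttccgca
*PAU4* (chrXII:1062919-1062978, plus strand): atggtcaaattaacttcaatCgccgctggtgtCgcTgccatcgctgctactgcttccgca
*PAU24* (chrII:809057-809116, plus strand): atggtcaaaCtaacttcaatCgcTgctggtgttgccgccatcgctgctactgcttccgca
*PAU5* (chrVI:99540-99599, minus strand): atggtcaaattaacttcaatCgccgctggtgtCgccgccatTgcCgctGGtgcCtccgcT
*PAU7* (chrI:176964-177023, minus strand): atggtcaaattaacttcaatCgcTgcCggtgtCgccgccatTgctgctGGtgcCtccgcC
*PAU17* (chrXII:94747-94806, plus strand): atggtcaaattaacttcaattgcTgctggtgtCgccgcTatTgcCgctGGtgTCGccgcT
*PAU23* (chrXII:223000-223059, minus strand): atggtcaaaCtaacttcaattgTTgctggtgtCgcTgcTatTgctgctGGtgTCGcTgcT

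Over their full coding sequence, *PAU24* and *PAU2* were 95.3% identical, *PAU4* and *PAU2* 94.5%, and *PAU17* and *PAU23*, which lie in the interior of chromosome XII, 93.9%. Other pairs that hold a tested gene were closer. *PAU24* and *PAU12* were 98.9% identical, *PAU13* and *PAU10* 98.6%, *PAU19* and *PAU3* 98.1%, and *PAU4* and *PAU10* 97.8%. The pairs *PAU1* and *PAU14*, *PAU6* and *PAU18*, and *PAU21* and *PAU22* were 100% identical, so a fragment cannot be placed on 1 gene of such a pair. Of the 29 members long enough for the comparison, 15 held a 150-base window that occurs more than once in the genome, as did 302 of 5921 coding genes in all (5.10%). No such window was found in *PAU2*, *PAU4*, *PAU5*, *PAU7*, *PAU17*, *PAU19*, *PAU23*, *DAN1* or the 4 *TIR* genes. By this measure of exact repeats in S288C, their counts depend least on how shared reads were treated. Windows that recur made up 6.54% of *PAU24*, 14.0% of *PAU12*, 16.8% of *PAU13* and 8.21% of *DAN4*. Whether fragments that map to several places were counted is not given in the sources used here. The reference is S288C while the cells are Σ1278b, so a *PAU* copy that this strain lacks and a copy that is present and silent cannot be told apart. *PAU12* and *PAU24* overlap the opposite-strand genes YGR293C and YBR300C by 41 bases each, and without strand such reads cannot be told apart. YBR300C had 0 counts in every sample, and YGR293C had 28, 33 and 43 counts in the mutant samples against 24, 20 and 29 in WT.

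The families share a short promoter sequence that the rule on names did not use. In the 500 bases before the start codon, on either strand, the core of the AR1 site through which Upc2 acts on *DAN* and *TIR* genes (TCGTTCA or TCGTTTA) was found in 30 of 30 members and in 856 of 5979 coding genes in all (14.3%). Of the 67 matches, 6 members had 1, 14 members had 2 and 10 members had 3 or more. The sterol response element (SRE) core bound by Upc2 and Ecm22 (TCGTATA) was found in 12 of 30 members (40.0%) and in 6.96% of all promoters. The core of the Rox1 site (ATTGTT) was found in 22 of 30 members (73.3%) and 49.0% of all promoters, and the Mot3 site (AAGGAA or AAGGTA or TAGGAA or TAGGTA) in 24 of 30 (80.0%) and 78.1%, so the Mot3 letters were about as common in members as in promoters at large. The *PAU* promoters are themselves related sequences, so 24 matching *PAU* promoters are not 24 independent observations. A match is a description of the letters and does not show that a factor binds there.

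For the 11 genes whose transcripts were detected best or that make up the *DAN* and *TIR* families, 1 match each is shown with 30 bases of R64 sequence in the direction of the gene. The capitals mark the AR1 core, which reads TGAACGA or TAAACGA where it lies on the other strand. The distance of the motif from the start codon, in bases, stands after the coordinates.
*DAN1* (chrX:709869-709898, minus strand, 180): ctaacaaaacaTCGTTCAggaacagagaat
*DAN4* (chrX:715918-715947, minus strand, 196): taagatctccaTCGTTCAggaactgtaaaa
*TIR1* (chrV:174886-174915, plus strand, 351): tttttacagcaTCGTTTAaggaacccaaca
*TIR2* (chrXV:347118-347147, minus strand, 186): catcatgtgagTAAACGAgtaagcaagaaa
*TIR3* (chrIX:333244-333273, plus strand, 472): attatttcattTGAACGAgacattggcttc
*TIR4* (chrXV:344102-344131, plus strand, 222): aacagggttccTAAACGAtgcatttctaac
*PAU2* (chrV:63517-63546, plus strand, 200): ccaaaaatggaTCGTTCAtgagtaaaggca
*PAU5* (chrVI:99817-99846, minus strand, 236): gaagtgcagcaTCGTTCAaggaaaatacac
*PAU7* (chrI:177240-177269, minus strand, 235): gaagtatagcaTCGTTCAagaacaacccgt
*PAU17* (chrXII:94525-94554, plus strand, 211): ataaacttgtgTCGTTCAgaaacaatagta
*PAU23* (chrXII:223488-223517, minus strand, 447): ggatattgcccTCGTTCAgagggcacagaa

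The AR1 cores stood at like positions in most *PAU* genes. In 19 of the 24 *PAU* genes a match began between 230 and 242 bases before the start codon, and in 14 a match began between 129 and 143 bases before it, which are the most common of the clusters that gaps of over 10 bases set apart. This grouping was made after the positions were seen. In *DAN* and *TIR* genes the positions were scattered between 136 and 472 bases. The SRE core was found in 4 of the 5 *PAU* genes beyond 30 kb of a chromosome end, *PAU2*, *PAU5*, *PAU7* and *PAU23*, and in 5 of the 19 within it, a split that was also noticed after the positions were seen and was not tested.

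**Figure D1:**
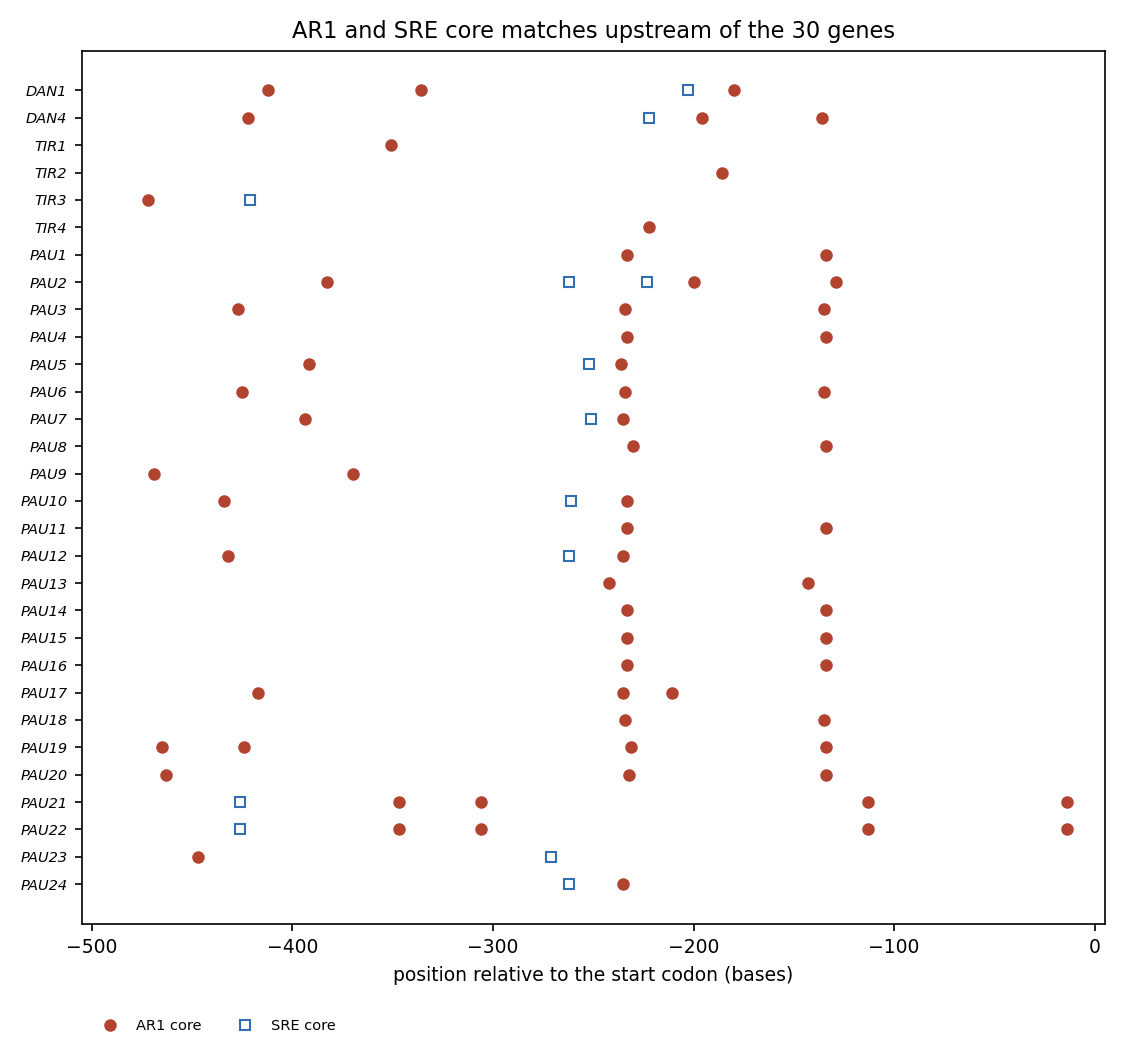
Positions of AR1 core matches (filled circles) and SRE core matches (open squares) in the 500 bases before the start codon of each of the 30 genes, with the distance from the start codon in bases on the horizontal axis. Each gene has at least 1 AR1 core, and in 19 of 24 *PAU* genes 1 lies between 230 and 242 bases upstream.

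Detection within the families went with position on the chromosome. Of the 30 genes, 19 lie within 30 kb of an end of a chromosome, all of them *PAU* genes, and 5 of these 19 passed the filter on low counts. All 11 genes farther from an end passed it, among them *DAN4*, which lies 30011 bases from an end. These 11 include all 6 *DAN* and *TIR* genes, which are longer than the *PAU* genes. For these 6, position, family and gene length cannot be told apart. By deposited FPKM, which corrects for gene length, *PAU7* had the highest level with 71.1 (mean of 6 samples), followed by *PAU23* with 38.5, *PAU2* with 20.3, *TIR2* with 14.6, *TIR3* with 13.5 and *PAU17* with 13.3. *PAU7* was above 63.8% of all genes tested, and the other 15 tested members were below the median of all genes tested, 43.2 FPKM. The annotated *PAU7* gene has 168 bases, fewer than the fragments selected for these libraries, and its FPKM depends on that short length. *TIR2*, *TIR3* and *PAU17* are neighbours in this order whose ranges over samples overlap, and likewise *DAN4*, *TIR4*, *PAU4* and *PAU13* with 4.95 to 5.39 FPKM. Levels did not follow position throughout. *DAN1* with 1.98 FPKM and *TIR1* with 3.99, both beyond 30 kb, were below *PAU4* with 5.00 and *PAU13* with 4.95, both within 30 kb.

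**Figure D2:**
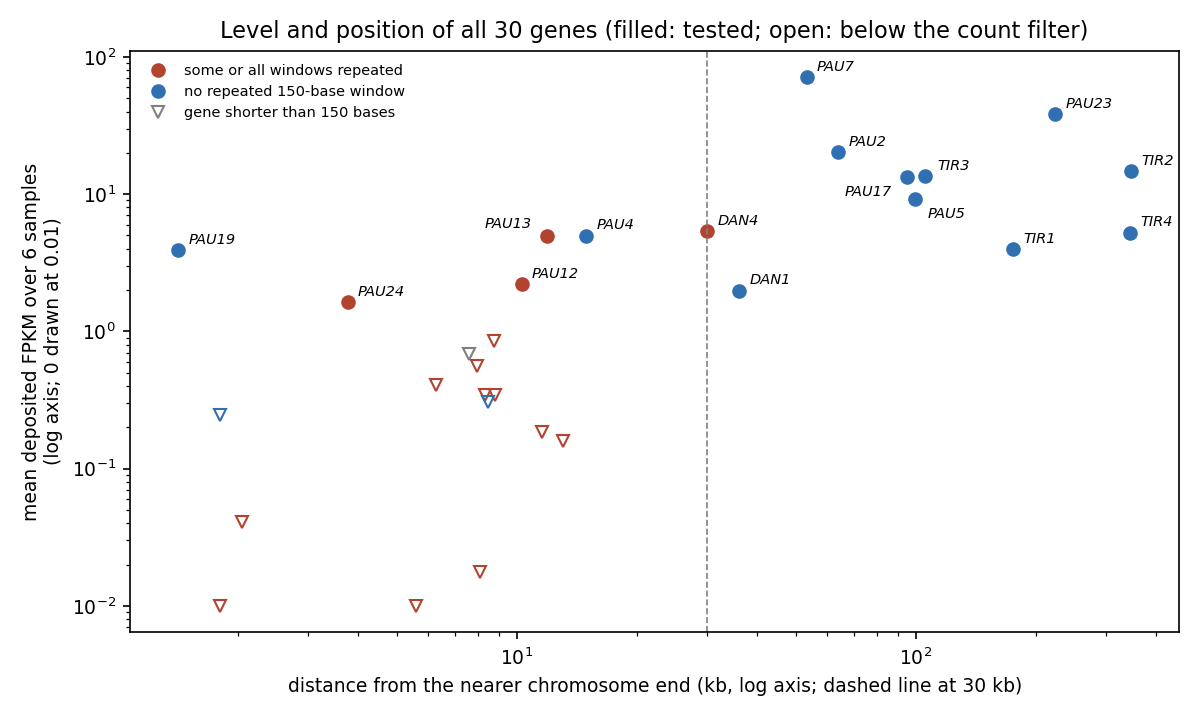
Mean deposited FPKM over 6 samples (log axis) of each of the 30 genes against its distance from the nearer chromosome end in kb (log axis), with the dashed line at 30 kb. Filled circles passed the filter on low counts and open triangles did not, and colour shows whether a gene holds a 150-base window that occurs more than once in the genome. All 11 genes beyond 30 kb were tested, against 5 of the 19 within it.

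Other coding genes near chromosome ends were also low, with a median of 7.62 FPKM for 457 genes within 30 kb and 38.8 FPKM for 6177 genes farther away. The 19 *PAU* genes in that zone had a median of 0.346 FPKM, and 12 of the 14 that were not tested hold repeated sequence or are shorter than a 150-base window. Low counts from shared reads and low transcript levels cannot be told apart there. *PAU3* and *PAU8*, which hold no repeated window, were also below the filter. *PAU8* had 0.104, 0.178 and 0.092 CPM in the mutant samples against 0.109, 0.053 and 0 CPM in WT.

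The *TIR* genes encode wall mannoproteins of the Tip1 family, known for their induction by cold and by lack of oxygen. *TIR4* and *TIR2* lie next to each other on chromosome XV, *TIR4* from 344335 to 345798 on the plus strand and *TIR2* from 346195 to 346950 on the minus strand. *TIR4* had 7.89, 9.73 and 7.69 CPM in the mutant samples, against 7.32, 6.14 and 7.42 CPM in WT. Every mutant value lay above every WT value, but by little (log2 fold change 0.28, standard error 0.16, 95% interval -0.088 to 0.64, adjusted *p* = 0.38 from edgeR). *TIR4* was the only tested member whose strains did not overlap, where 26.6% of all genes tested did not overlap in either direction and 11.8% did not overlap and were higher in the mutant. *TIR2* had 13.6, 10.9 and 11.3 CPM in the mutant samples and 11.6, 10.1 and 8.99 CPM in WT, so the strains overlapped (log2 fold change 0.22, standard error 0.15, 95% interval -0.12 to 0.57, adjusted *p* = 0.45 from edgeR). *TIR3*, on chromosome IX from 333727 to 334536, had 8.36, 14.1 and 11.4 CPM in the mutant samples and 12.7, 9.74 and 9.23 CPM in WT. Its mutant samples held both the lowest and the highest of the 6 values, and its log2 fold change of 0.11 (standard error 0.21) lay within that spread. *TIR1*, which completes the family and falls outside the rule for genes with values per sample, averaged 3.05 ± 0.823 CPM in the mutant and 3.06 ± 0.183 CPM in WT (SD, n = 3 each), and its coding sequence is 73.5% identical to that of *TIR2*.

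*DAN1* and *DAN4* lie in tandem on the minus strand of chromosome X, *DAN1* from 708811 to 709707 and *DAN4* from 712255 to 715740. *DAN4*, which encodes a long serine- and threonine-rich wall mannoprotein, had 338 to 408 counts per sample. It had 19.9, 17.4 and 18.7 CPM in the mutant samples and 20.1, 20.8 and 16.1 CPM in WT. The mutant values fell inside the WT range, and the log2 fold change was -0.025 (standard error 0.13, 95% interval -0.32 to 0.27, adjusted *p* = 0.94 from edgeR). *DAN1*, a wall mannoprotein named for its delayed induction without oxygen, was lower by FPKM, with a mean of 1.98 against 5.39 for *DAN4*. It had 1.78, 1.07 and 2.20 CPM in the mutant samples, against 2.13, 1.69 and 1.81 CPM in WT. Its strains overlapped, and with 24 to 48 counts per sample its 95% interval was wider, from -0.87 to 0.54 (log2 fold change -0.16, adjusted *p* = 0.81 from edgeR).

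The 5 *PAU* genes beyond 30 kb of an end, *PAU2*, *PAU5*, *PAU7*, *PAU17* and *PAU23*, held 84.3% of the counts of all 24 *PAU* genes. *PAU7* had 13.5, 12.3 and 11.8 CPM in the mutant samples, against 12.2, 11.0 and 10.9 CPM in WT. Its strains overlapped, its values spread little within either strain, and its log2 difference of 0.14 (standard error 0.12, 95% interval -0.14 to 0.41) had an adjusted *p*-value of 0.58 in edgeR. *PAU23* had 10.9, 18.0 and 14.0 CPM in the mutant samples and 16.7, 14.0 and 12.9 CPM in WT. The mutant samples again held both extremes, and the means were nearly equal at 14.3 ± 3.57 CPM in the mutant and 14.6 ± 1.94 CPM in WT (SD, n = 3 each; log2 fold change -0.020, standard error 0.19). *PAU2* had 6.84, 8.93 and 7.55 CPM in the mutant samples and 6.50, 7.73 and 6.66 CPM in WT, a log2 fold change of 0.16 (standard error 0.16) with overlap. *PAU17*, which shares 93.9% of its coding sequence with *PAU23* and lies on the same chromosome, had 5.80, 5.55 and 4.17 CPM in the mutant samples and 4.48, 4.98 and 4.95 CPM in WT, a log2 fold change of 0.10 (standard error 0.18). The low mutant value of *PAU17* was in replicate 3 and that of *PAU23* in replicate 1, so the 2 close copies did not vary in step.

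*PAU5* on chromosome VI varied most among the mutant samples. It had 0.940, 5.55 and 3.94 CPM in the mutant samples, with the low value in replicate 1, against 3.22, 3.55 and 3.23 CPM in WT. The highest mutant value was 5.91 times the lowest, while the same ratio was 1.10 in WT. Mutant replicate 1 is the sample in which chromosome VI as a whole had a median log2 difference of -0.88, and *PAU5* stood at -1.83 there. Its log2 fold change over all samples, 0.077 (standard error 0.49), had an adjusted *p*-value of 0.95 in edgeR. Without mutant replicate 1 it was 0.51 (adjusted *p* = 0.26), and with an offset for chromosomes XIV and VI it was 0.20 (adjusted *p* = 0.80). *PAU6* on chromosome XIV had 2 counts in mutant replicate 2 and 0 in the 5 other samples, so that the lower level of chromosome XIV could not be followed in it at this depth.

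Of the 5 tested *PAU* genes near chromosome ends, *PAU4* had 1.41, 2.40 and 1.01 CPM in the mutant samples and 2.57, 2.22 and 1.28 CPM in WT, which overlapped. Its log2 fold change of -0.32 (standard error 0.39, 95% interval -1.22 to 0.58, adjusted *p* = 0.71 from edgeR) ran from -0.74 without mutant replicate 2 to -0.065 without mutant replicate 3, and was -0.12 without WT replicate 1. *PAU24* had 19, 6 and 8 counts in the mutant samples and 12, 17 and 8 in WT, and its 95% interval, from -1.60 to 1.05 around a log2 fold change of -0.28, allows changes of over 2-fold in either direction. *PAU12*, *PAU13* and *PAU19* had 9 to 46 counts per sample, overlapped between the strains, and had log2 fold changes from -0.080 to -0.035. All 5 log2 fold changes were below 0, and the lowest of their adjusted *p*-values was 0.71 in edgeR.

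**Figure D3:**
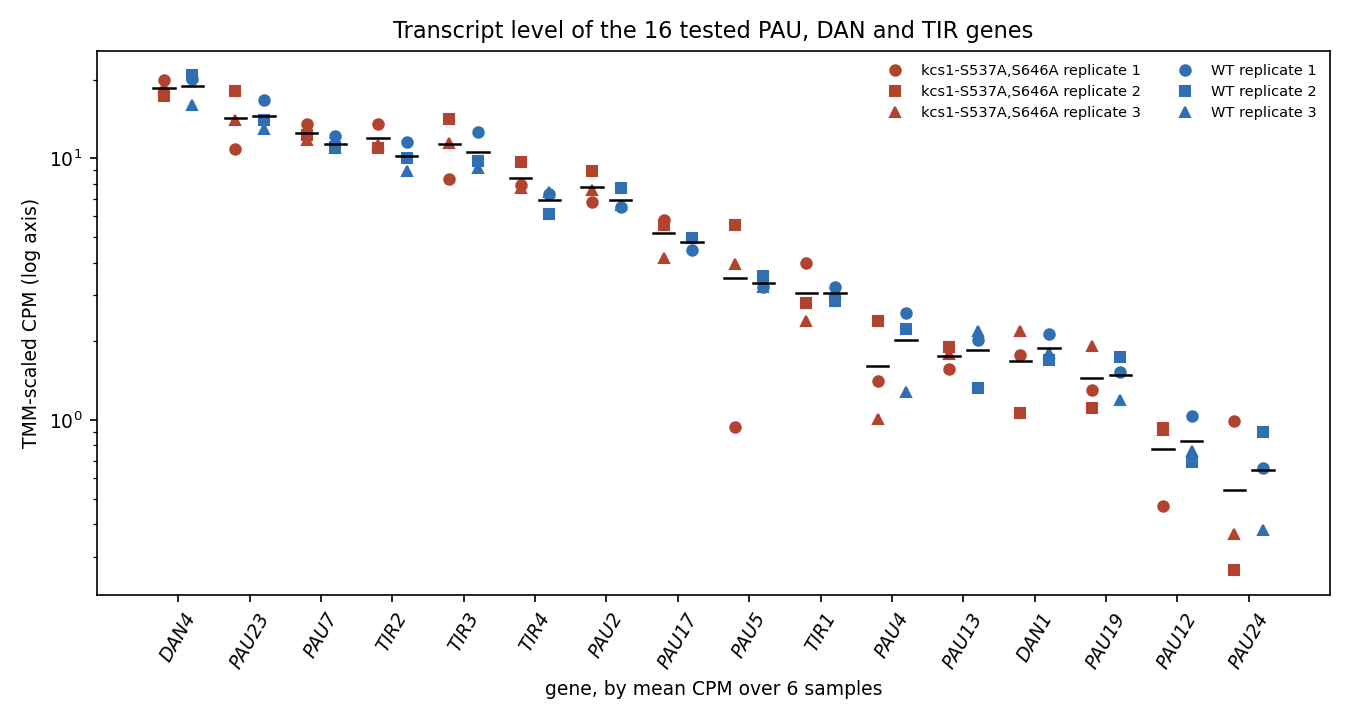
Transcript level in TMM-scaled CPM (log axis) of the 16 tested genes in each of the 3 *kcs1*-S537A,S646A samples (red) and 3 WT samples (blue), with bars at the strain means. The strains overlap in 15 genes, and *PAU5* in mutant replicate 1 stands apart from the other *PAU5* values.

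The strains were then compared over the 16 tested members. In edgeR, 0 of them passed 0.05 with adjustment and 0 without it. The background was 5.66% of all genes tested with adjustment, 0.986% higher and 4.67% lower in the mutant, and 20.1% without it. Without the genes of chromosomes XIV and VI it was 0.289%, and with an offset for them 0.247%, so a count of 0 among 16 genes does not set the members apart from other genes. DESeq2 also called 0 members, where it called 9.73% of all genes, but it gave no adjusted *p*-value for *PAU12* and *PAU24*. The log2 fold changes of the members ran from -0.32 to 0.28 with 7 above and 9 below 0, where 53.2% of all genes tested were above 0, and their median was -0.015, against 0.015 for all genes tested. For 13 of the 16, the 95% interval lay within a 2-fold difference in either direction, and *PAU4*, *PAU5* and *PAU24* were the exceptions.

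**Figure D4:**
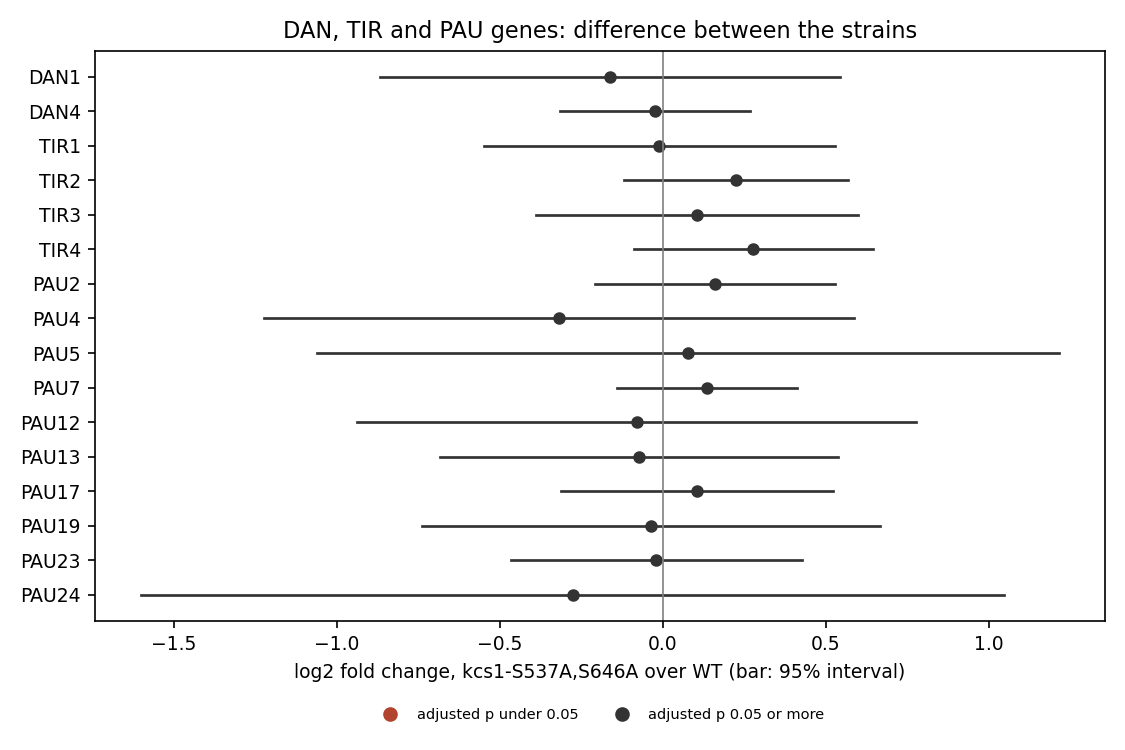
Log2 fold change of *kcs1*-S537A,S646A over WT for the 16 tested genes, with 95% intervals from edgeR. Every interval includes 0, and those of *PAU4*, *PAU5* and *PAU24* reach beyond 1 in size.

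Summed levels depend less on how shared reads were split between copies. The 24 *PAU* genes together had 44.9, 58.8 and 48.8 CPM in the mutant samples, against 52.5, 49.8 and 45.5 CPM in WT (50.8 ± 7.21 and 49.2 ± 3.50 CPM, SD, n = 3 each). The *DAN* and *TIR* genes together had 55.5, 56.0 and 53.6 CPM in the mutant samples, against 57.0, 51.3 and 46.6 CPM in WT (55.0 ± 1.23 and 51.6 ± 5.20 CPM, SD, n = 3 each). Both sums overlapped between the strains, with log2 ratios of the means of 0.046 for *PAU* and 0.092 for *DAN* and *TIR*. The *PAU* ratio changed sign without mutant replicate 2 (-0.072) and without WT replicate 3 (-0.0076), and was 0.13 without mutant replicate 1.

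Members varied more among the mutant samples than among the WT samples. The standard deviation of log2 CPM had a median of 0.37 in the mutant and 0.19 in WT over the 16 members, and it was larger in the mutant for 13 of them. All genes tested shared this direction, with medians of 0.16 in the mutant and 0.084 in WT, and for the 1173 genes with a mean between 1 and 20 CPM they were 0.25 and 0.17. In 6 members (*PAU2*, *PAU5*, *PAU12*, *PAU13*, *PAU23* and *TIR3*), mutant replicate 1 was the lowest mutant sample and replicate 2 the highest. Whether the mutant's excess of spread was larger in these families than in other genes was not tested.

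Of the 14 members that were not tested, *PAU15* and *PAU16* had 0 counts in all 6 samples, which allows up to 0.0246 CPM over the 6 libraries together for counting error alone. The other 12 had 1 to 37 counts in total. *PAU3* had 2, 7 and 4 counts in the mutant samples and 0, 0 and 2 in WT, and without the filter its adjusted *p*-value was 0.28 in edgeR. It was singled out after its values were seen. Of these 14, *PAU3* was the only gene with all mutant values above WT by CPM. *PAU10* was the only gene with all below, at 1 to 2 counts per mutant sample against 3 to 4 in WT. Among all genes tested, 26.6% did not overlap in either direction, and 11.8% did not overlap and were higher in the mutant. With so few counts, neither *PAU3* nor *PAU10* stands out.

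Genes known to act on these families or on hypoxic genes were compared from a list of 15 transcription factors and corepressors. Of these, 1 was higher and 1 lower in the mutant, where 0.986% and 4.67% of all genes tested were. Without adjustment, 6 of the 15 passed 0.05 in edgeR, where 20.1% of all genes tested did. The median log2 fold change of the list was 0.030, against 0.015 for all genes tested. *ECM22*, which encodes the paralogue of Upc2 that activates sterol synthesis genes, rose to 38.4, 32.5 and 33.3 CPM in the mutant samples, against 24.1, 24.7 and 24.2 CPM in WT. The strains did not overlap (log2 fold change 0.51, standard error 0.093, adjusted *p* = 0.018 from edgeR). *UPC2* itself had 20.8, 21.4 and 25.1 CPM in the mutant samples and 20.0, 21.1 and 15.9 CPM in WT, with overlap (log2 fold change 0.24, 95% interval -0.070 to 0.56, adjusted *p* = 0.37). *RPD3*, a histone deacetylase gene on chromosome XIV, fell to 71.7, 83.2 and 82.5 CPM in the mutant samples, against 109.8, 109.8 and 111.7 CPM in WT (log2 fold change -0.48, adjusted *p* = 0.014 from edgeR). With the offset for chromosomes XIV and VI its log2 fold change was 0.042, so it stood level with its chromosome. Without any 1 of the WT replicates, neither *ECM22* (adjusted *p* = 0.091 to 0.096 from edgeR) nor *RPD3* (0.075 to 0.083) passed the test, in fits that called 84 to 122 genes in all. The call of *ECM22* was also lost without the genes of chromosomes XIV and VI (adjusted *p* = 0.082) and with the offset (0.074), at log2 fold changes of 0.49 and 0.51.

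The repressor genes *ROX1* and *MOT3* did not pass the test, nor did *HAP1* or *SUT1*. *ROX1*, the heme-dependent repressor of hypoxic genes, had 341, 203 and 284 CPM in the mutant samples and 343, 319 and 351 CPM in WT (log2 fold change -0.29, 95% interval -0.69 to 0.11, adjusted *p* = 0.41 from edgeR). *MOT3* had 66.6, 61.4 and 62.8 CPM in the mutant samples and 62.8, 64.3 and 59.8 CPM in WT (log2 fold change 0.030, 95% interval -0.14 to 0.20). The heme-responsive activator gene *HAP1* had 202, 234 and 226 CPM in the mutant samples and 233, 219.7 and 239.6 CPM in WT (log2 fold change -0.065, 95% interval -0.27 to 0.14). Both overlapped between the strains. *SUT1*, a regulator of sterol uptake, had 46.5, 27.6 and 29.9 CPM in the mutant samples, against 26.8, 26.4 and 22.3 CPM in WT (log2 fold change 0.46, adjusted *p* = 0.24 from edgeR). Its strains did not overlap, as in 11.8% of all genes tested with the mutant higher.

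Of 14 other genes known to be raised when oxygen or heme is low, 0 passed edgeR's test with adjustment and 3 passed 0.05 without it, while DESeq2 called these 3. Over all genes tested, 20.1% passed without adjustment and DESeq2 called 9.73%. The 3 were *FET4*, *ANB1* and *GPD2*, and their log2 fold changes were positive. The median log2 fold change of the 14 was 0.12. *FET4*, a low-affinity iron transporter gene repressed by Rox1, had 140, 259 and 129 CPM in the mutant samples and 105, 84.6 and 90.8 CPM in WT (log2 fold change 0.91, standard error 0.25, adjusted *p* = 0.089 from edgeR). *ANB1*, an eIF5A translation factor gene expressed when oxygen is low, had 178, 131 and 207 CPM in the mutant samples and 122, 110 and 94.9 CPM in WT (log2 fold change 0.66, standard error 0.17, adjusted *p* = 0.069). *GPD2*, a glycerol 3-phosphate dehydrogenase gene, had 766, 420 and 473 CPM in the mutant samples and 352, 369 and 349 CPM in WT (log2 fold change 0.63, adjusted *p* = 0.14). The strains did not overlap in any of the 3, as in 26.6% of all genes tested, 11.8% with the mutant higher, and the highest mutant value came from replicate 2 in *FET4*, replicate 3 in *ANB1* and replicate 1 in *GPD2*. Without mutant replicate 2, *ANB1* (0.82), *FET4* (0.52) and *CYC7* (-0.63) passed the test, in a fit that called 7.88% of all genes tested.

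Of the 3 wall mannoprotein genes known to be expressed in air, *TIP1*, after which the *TIR* genes are named, was higher in the mutant. It had 256, 186 and 135 CPM in the mutant samples, against 111, 96.2 and 76.2 CPM in WT, without overlap (log2 fold change 1.03, standard error 0.23, adjusted *p* = 0.044 from edgeR). Over all genes tested, edgeR called 0.986% higher in the mutant, and 11.8% did not overlap and were higher in the mutant. The call of *TIP1* sat near the threshold and was lost in 9 of 16 alternatives, where its adjusted *p*-value ran from 0.050 to 0.17 and its log2 fold change stayed at or above 0.76. Among these were the fits without mutant replicate 1 (adjusted *p* = 0.052) or 2 (0.066) and without WT replicate 1 (0.095), 2 (0.17) or 3 (0.17). The call was also lost in edgeR without the genes of chromosomes XIV and VI (adjusted *p* = 0.12) and with the offset for them (0.11). *CWP1* and *CWP2*, the wall proteins that the *DAN* and *TIR* proteins replace without oxygen, overlapped between the strains. *CWP1* had 3.66, 3.46 and 2.01 CPM in the mutant samples and 3.11, 4.13 and 2.85 CPM in WT (log2 fold change -0.15, adjusted *p* = 0.81 from edgeR). With a mean of 3.20 CPM over the 6 samples, *CWP1* was about as low as *TIR1*, at 3.05 CPM. *CWP2* had 994, 1218 and 692 CPM in the mutant samples and 925, 967 and 1017 CPM in WT (log2 fold change -0.0023, adjusted *p* = 0.997 from edgeR). The 500 bases before *TIP1* hold 0 AR1 cores and 0 SRE cores, while each of the 4 *TIR* genes has an AR1 core. Upstream of *CWP1* there is 1 AR1 core, and upstream of *CWP2* there are 0.

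**Figure D5:**
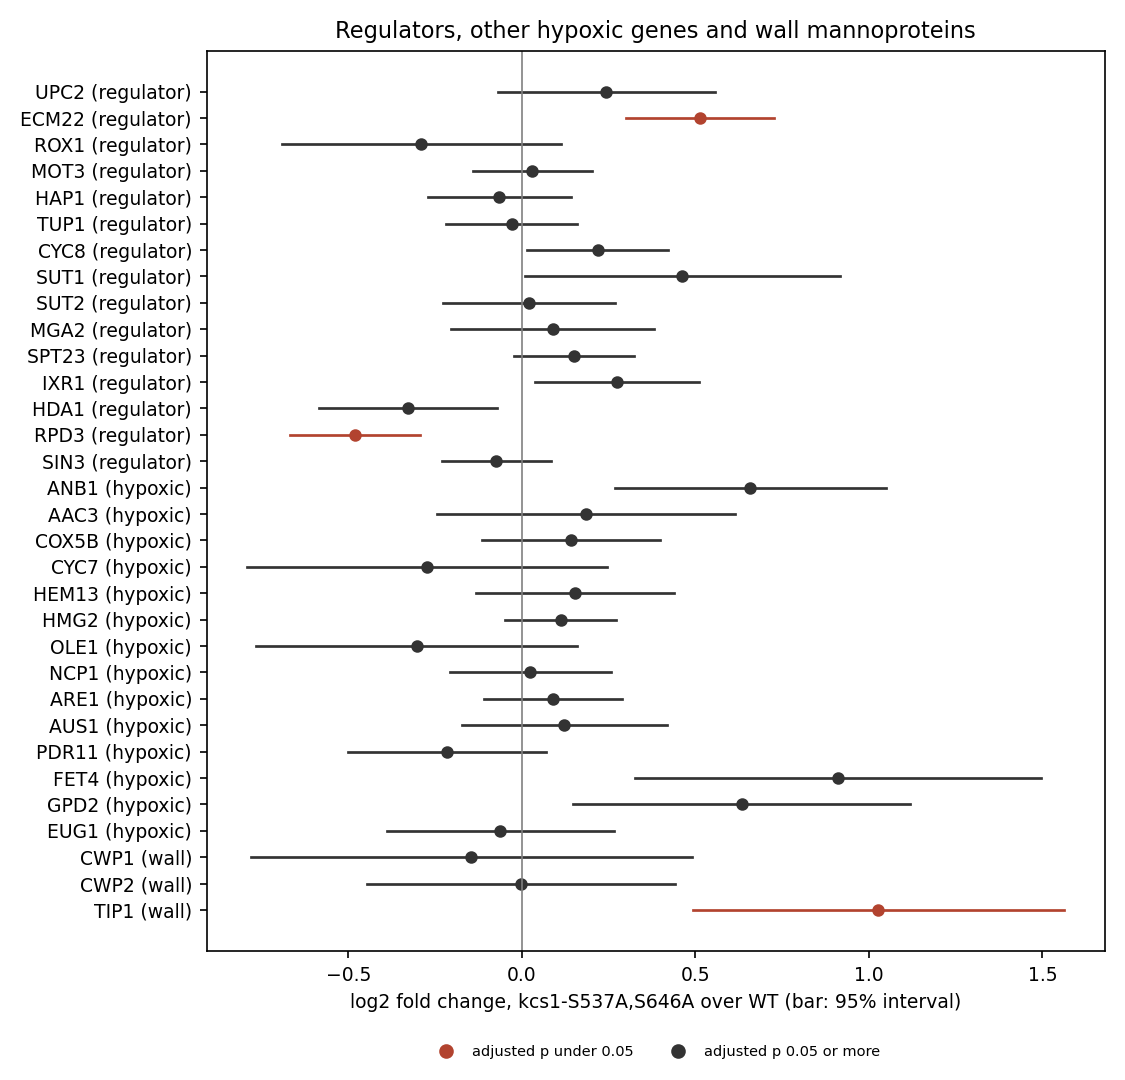
Log2 fold change of *kcs1*-S537A,S646A over WT with 95% intervals from edgeR for the 15 regulators, 14 other hypoxic genes and 3 wall mannoprotein genes, in red where the adjusted *p*-value was under 0.05. *ECM22* and *TIP1* are in red above 0 and *RPD3* below it.

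Genes outside the families that share the AR1 core or the position near an end were called about as often as genes at large. Outside the families, 826 genes had the AR1 core, and of the 797 tested 3 were higher and 41 lower in the mutant (5.52%), with a median log2 fold change of 0.0040, against 5.91% and 0.014 for genes without it. Of 330 other coding genes tested within 30 kb of an end, 7 were higher and 8 lower (4.55%), against 5.79% of genes farther away. Over all genes tested, the share called fell from 5.66% to 0.289% without the genes of chromosomes XIV and VI. The shares of these groups without those chromosomes were not computed.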

How the data were processed

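Libraries were made from poly(A) RNA of 3 *kcs1*-S537A,S646A and 3 WT colonies. Per the labels, the authors' processing used HISAT2 2.0.5, featureCounts 1.5.0-p3, StringTie 1.3.3b and DESeq2 1.20.0. The genome build, the strand setting and the treatment of multi-mapping fragments are not given in the sources used here. The 30 genes had the coordinates of R64. The authors deposited counts per gene without normalization, and FPKM values, which they divided by gene length and a depth per sample. Their table of mean FPKM per strain was not used.

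The test was edgeR 4.0.16 in R 4.3.3 (6083 genes kept by filterByExpr at a minimum of 10 counts, TMM, glmQLFit and glmQLFTest, 2-sided, Benjamini-Hochberg adjustment over all genes tested, threshold 0.05). Intervals are 95% intervals from the same fit. CPM were scaled by TMM factors. Chromosome medians used log2 of TMM-scaled CPM with a small constant added, and correlations between colonies used log2 CPM with a prior count of 3. Sequences came from the R64 reference, with identity from global alignment in Biopython 1.88 (match 2, mismatch -1, gap opening -5, gap extension -1). Counting limits for 0 counts use 3 counts and cover counting error only.

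Replicate numbers come from the labels and mark colonies, and samples were treated as unpaired. Values per sample are given for the 6 members with the highest mean FPKM, the 6 tested members with the largest log2 fold changes, those on chromosomes XIV and VI and the 4 *DAN* and *TIR* genes with the highest CPM. From the other lists they are given for genes that passed the test, the 3 with the largest changes and *UPC2*, *ROX1*, *MOT3* and *HAP1*. Of the genes repressed in diploids, *MFA1* had 6.63, 9.95 and 11.9 CPM in the mutant samples and 6.71, 5.72 and 5.90 CPM in WT (log2 fold change 0.64, adjusted *p* = 0.16 from edgeR). *BAR1* had 6.53, 5.64 and 4.21 CPM in the mutant samples and 4.26, 3.65 and 4.19 CPM in WT (log2 fold change 0.43, adjusted *p* = 0.29). The members and lists were chosen with earlier results of these data known. Alternatives were DESeq2 size factors or library totals, no filter or 10 counts in every sample, DESeq2 1.42.0, limma-voom (limma 3.58.1), limma-trend on log2(FPKM + 1), a replicate block, each sample left out, and fits without or with an offset for chromosomes XIV and VI. The procedure was tested on simulated data, drawn with the trend of spread over genes and not with each gene's own spread. It recovered 96 of 100 2-fold changes, and 17 of 21 at log2 CPM under 4. It made 12 false calls among 6083 genes.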

Additional observations from a re-analysis of the deposited data

How the results depend on the processing

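The count of members with an adjusted *p*-value under 0.05 was 0 in all 16 alternatives, and of 190 recomputed log2 fold changes of named members 14 had the opposite sign, with a lowest adjusted *p*-value of 0.26. The sign changes were in *PAU5* with limma-voom (-0.22), with FPKM (-0.20) and with the replicate block (-0.097), and with samples left out in turn in *PAU5* (-0.43 to 0.51), *DAN1* (-0.41 to 0.084), *DAN4* (-0.13 to 0.044), *PAU23* (-0.22 to 0.14), *PAU24* (-1.01 to 0.055) and *TIR3* (-0.090 to 0.28). The summed *DAN* and *TIR* level had a log2 ratio of 0.13 by FPKM and of 0.024 (without WT replicate 3) to 0.17 (without WT replicate 1) with samples left out, and the summed *PAU* level -0.072 (without mutant replicate 2) to 0.13 (without mutant replicate 1), against 0.046. Over all genes, 344 calls compared with 592 by DESeq2, 16 without chromosomes XIV and VI, 15 with an offset for them and 84 to 481 with samples left out, the lowest without WT replicate 2. The regulator list had 0 to 2 calls and the other hypoxic list 0 to 3 with samples left out, the cause of which was not tested. *RPD3* stood at 0.042 with the offset. By deviations from the mean of their strain, same-numbered colonies correlated at -0.14, 0.025 and 0.35, and pairs of unlike number at -0.26 to 0.26. The highest of these values was that of replicates 3. Whether same-numbered colonies share a batch was not tested. The replicate block gave 282 calls over all genes and 0 members. The alternatives for *TIP1*, *ECM22*, *RPD3* and *STE4* were added after the data were seen. *STE4* lost its call in edgeR with library totals and with the replicate block (adjusted *p* = 0.065 each), without mutant replicate 3 (0.072), without WT replicate 2 (0.14) or 3 (0.11), without chromosomes XIV and VI (0.10) and with the offset (0.090), and *ECM22* in these last 2 fits (0.082 and 0.074). Low counts limit *PAU24* and the 14 untested genes.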
